A study of Mus musculus with 8 samples.

Results

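The 36 genes described here encode enzymes of the tricarboxylic acid (TCA) cycle and of the breakdown of the branched-chain amino acids (BCAA) leucine, isoleucine and valine. They were selected by name, with 15 genes in the TCA group and 21 in the BCAA group, and where a gene had several probe sets the brightest, averaged over 8 arrays, stood for it. The BCAA group includes Oxct1, which acts on ketone bodies, and Bckdk and Ppm1k, which regulate an enzyme complex. Mdh1 and Bcat1 encode cytosolic enzymes. All 36 were found among the 18782 genes that the array annotation names by 1 symbol. The tissue was the fat that wraps the thoracic aorta (thoracic perivascular fat), taken from male mice aged 17 to 22 weeks that were fasted overnight and killed at 9 am. A total of 4 arrays came from mice labelled RictoraP2KO and 4 from control mice labelled Rictorfl/fl. Rictor defines mTOR complex 2, which acts in insulin signalling, and the Cre recombinase behind the label is driven by the promoter of aP2 (Fabp4), a gene of fat cells that is also known to be active in other cell types. The series title names the brain as well as fat as sites of the deletion. The control mice carry the floxed Rictor alleles too, and the labels do not say whether each array is 1 animal or a pool. The question the comparison answers for these genes is whether their signals differed between the genotypes. It also asks whether the TCA group and the BCAA group differed in the same way.

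The TCA cycle oxidises acetyl-CoA in the mitochondrial matrix and passes its electrons to the respiratory chain. Branched-chain amino acids are first transaminated, then decarboxylated by the branched-chain ketoacid dehydrogenase complex, which a kinase inactivates and a phosphatase activates. Separate branches then turn the carbon of leucine into acetyl-CoA and acetoacetate. Carbon of valine and part of that of isoleucine reach propionyl-CoA, which enters the TCA cycle as succinyl-CoA. Brown fat, which thoracic perivascular fat resembles, is known for a high content of mitochondria and for taking up branched-chain amino acids as fuel.

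Values are log2 RMA signals, and differences are RictoraP2KO minus control on that scale with their standard error (SE). The signal of Rictor itself averaged 6.68 ± 0.08 (SD, n = 4) under the label RictoraP2KO and 6.54 ± 0.06 (SD, n = 4) under the control label, and every direction below rests on the labels. Where the probes lie relative to the deleted part of the gene is not known here, so this signal does not check the deletion. The brown fat marker Ucp1, the uncoupling protein, had a signal of 11.75 ± 0.26 (SD, n = 4) in the RictoraP2KO arrays and 11.67 ± 0.26 (SD, n = 4) in the control arrays, far above the array median of 3.76. The adipocyte marker Adipoq stood at 10.96 ± 0.11 and 10.94 ± 0.10 (SD, n = 4 each). With each gene centred on its mean over the 8 arrays, the 11 brown fat markers averaged -0.45 to 0.26 over the RictoraP2KO arrays. Over the control arrays they averaged -0.22 to 0.23, a difference of -0.05. Of these markers 7 had differences below 0 and 4 above, beside 53.2% of all genes below 0. Markers of other tissues were uneven too. RictoraP2KO replicate 2 had the highest signal for 11 of 13 skeletal muscle and 10 of 15 cardiac muscle markers. With each gene centred on its mean over the 8 arrays, the 12 lung epithelium markers averaged 2.70 in control replicate 2, the remaining 7 arrays running from -0.50 to -0.31. The 13 neuron markers averaged 1.21 in control replicate 3, against -0.29 to -0.09 elsewhere. The 10 macrophage markers averaged -0.26 to 0.41 over the RictoraP2KO arrays and -0.28 to 0.01 over the control arrays, a difference of 0.31. All 10 had differences above 0, beside 46.8% of all genes. Of them 3 had an unadjusted limma p under 0.05, beside 6.48% of all genes. The fibroblast and endothelium markers, 8 genes each, differed by 0.14 and 0.09 on average, and the 8 smooth muscle markers by -0.13. The 11 lymphocyte markers averaged -0.24 to 0.56 over the RictoraP2KO arrays, with the highest value in replicate 2, and -0.23 to 0.10 over the control arrays, a difference of 0.26. The part of these signals in the enzyme values was not tested. In bulk tissue, fewer cells of a type and less RNA per cell cannot be told apart.

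None of the 36 enzymes differed between the genotypes past an adjusted p of 0.05 (limma, Benjamini-Hochberg over all 28371 probe sets), where 0.00532% of all genes did. At an unadjusted p under 0.05 there was 1 enzyme, Oxct1, with the lower values in the RictoraP2KO arrays. At that level 6.48% of all genes were found, 3.56% lower and 2.92% higher. No enzyme separated the groups without overlap, against 1.5% of all genes higher and 2.07% lower without overlap. Adjusted limma p-values of the 36 ran from 0.668 to 0.999. The median difference was -0.06 over the TCA group and -0.03 over the BCAA group, beside -0.01 over all genes. A total of 11 of 15 TCA genes and 12 of 21 BCAA genes had differences below 0, as did 53.2% of all genes.

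The intervals show how large a difference in array signal these arrays leave room for. The 95% interval of the difference lay within 1.2-fold in both directions (0.26 on the log2 scale) for 11 of 15 TCA genes and 7 of 21 BCAA genes, beside 42% of all genes and 29.5% of the genes above the median signal. Of the TCA genes, 10 had a mean signal of 10 or more, and the share was not counted for all genes that bright. At that level the median SD within a group was 0.094 over all genes, beside 0.158 above the median signal. The TCA genes with wider intervals were Idh2, Suclg2, Mdh1 and Pcx. All 15 TCA genes and 17 of 21 BCAA genes (81%) had intervals within 1.5-fold, beside 90.8% of all genes and 86.4% of those above the median signal. The exceptions were Bcat2, Ppm1k, Auh and Oxct1, whose intervals reached from -0.35 to 0.75, from -0.09 to 1.11, from -0.98 to 0.09 and from -0.91 to -0.07.

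**Figure D1:**
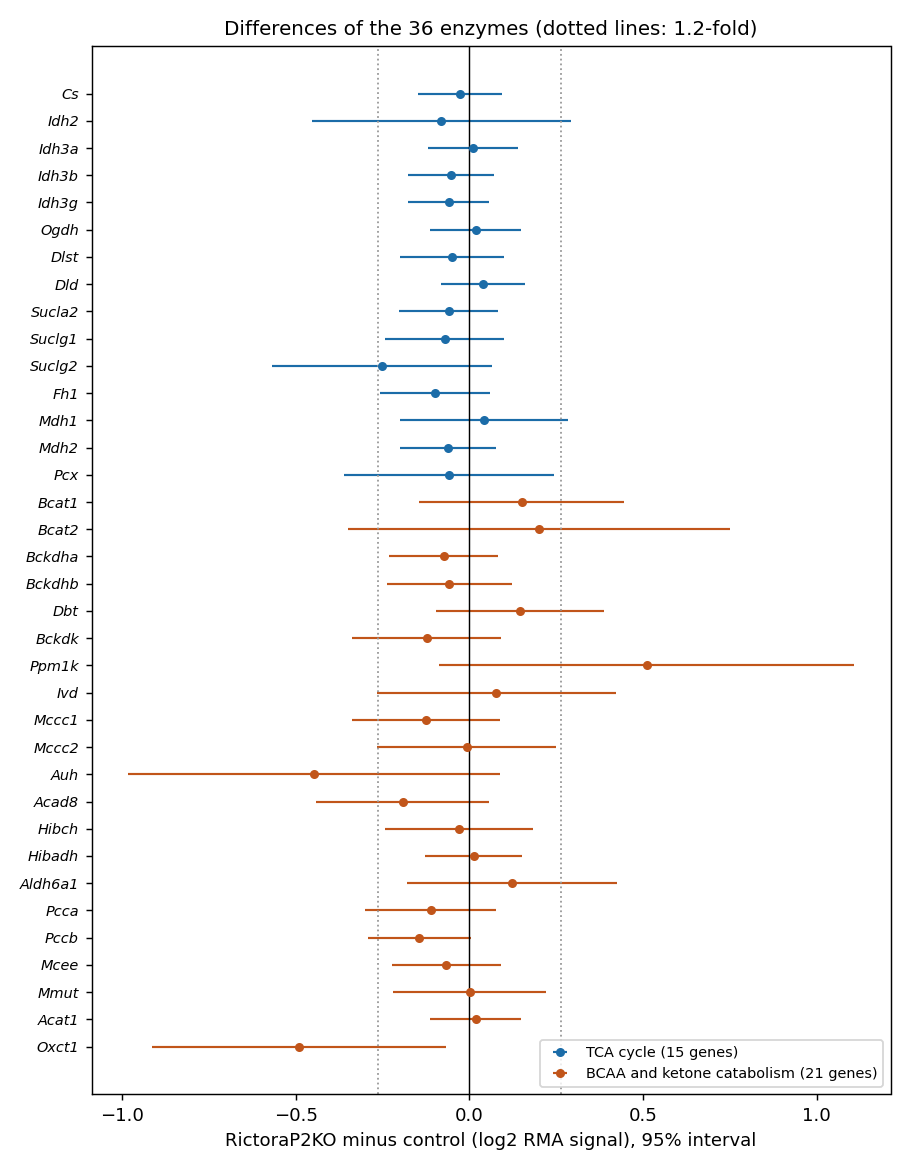
Difference of each of the 36 enzymes between 4 RictoraP2KO and 4 control arrays, in log2 RMA signal (horizontal axis), with its 95% interval from limma; blue marks the 15 TCA genes and orange the 21 BCAA genes, and dotted lines mark 1.2-fold. The TCA intervals cluster around 0, and the Oxct1 interval, from -0.91 to -0.07, is the one that does not reach 0.

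Citrate synthase, which joins acetyl-CoA to oxaloacetate, was at nearly the same level in both groups. Cs signals were 11.21, 11.11, 11.18 and 11.19 in RictoraP2KO replicates 1 to 4 and 11.25, 11.21, 11.15 and 11.19 in the control replicates. The groups overlapped, and Cs differed by -0.03 (SE 0.053; limma adjusted p = 0.931). Among the isocitrate dehydrogenases, the NAD-dependent enzyme is built from Idh3a, Idh3b and Idh3g, and Idh2 encodes the NADP-dependent mitochondrial enzyme. Idh3g had the smallest p of this step, with 11.44, 11.37, 11.42 and 11.41 in the RictoraP2KO arrays and 11.53, 11.44, 11.45 and 11.46 in the control arrays. The highest RictoraP2KO value equalled the lowest control value at the 2 decimals deposited. Idh3g differed by -0.06 (SE 0.051; limma adjusted p = 0.827; exact two-sided permutation p = 0.0571). Idh3b differed by -0.05, Idh3a by 0.01 and Idh2 by -0.08. Idh2 varied most of the 4 within the groups, from 9.04 to 9.69 in the RictoraP2KO arrays and from 8.98 to 9.53 in the control arrays.

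The oxoglutarate dehydrogenase complex, which makes succinyl-CoA, consists of Ogdh (the decarboxylase), Dlst (the succinyltransferase) and Dld, a dehydrogenase subunit it shares with the pyruvate and branched-chain complexes. Dlst had the smallest p of the 3, at 10.10, 9.93, 10.17 and 10.03 in the RictoraP2KO arrays and 10.13, 10.13, 10.04 and 10.13 in the control arrays, a difference of -0.05 (SE 0.066; limma adjusted p = 0.887). Its highest and its lowest value were both in RictoraP2KO arrays. Ogdh differed by 0.02 and Dld by 0.04, and both were above the control mean in all 4 RictoraP2KO arrays while the groups overlapped. For Ogdh, RictoraP2KO replicates 1, 2 and 4 were at 11.07 and the control mean was 11.065, a margin below the 2 decimals deposited. Control replicate 1 was its highest array, at 11.18.

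The largest difference of the TCA group was at the succinyl-CoA ligases. Suclg2, the subunit that gives the enzyme its specificity for GTP, was at 8.71, 8.12, 8.56 and 8.62 in the RictoraP2KO arrays and at 8.69, 8.85, 8.53 and 8.94 in the control arrays. RictoraP2KO replicate 2 was the lowest, and the other 3 RictoraP2KO arrays lay within the control range. Suclg2 differed by -0.25 (SE 0.139; limma adjusted p = 0.749), or by -0.12 without that array. The other probe set annotated to Suclg2 differed by -0.26. Sucla2, the subunit specific for ATP, differed by -0.06, and Suclg1, the subunit both enzymes share, by -0.07.

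Fh1, fumarase, was at 10.23, 10.07, 10.16 and 10.10 in the RictoraP2KO arrays and at 10.33, 10.32, 10.11 and 10.20 in the control arrays. All 4 RictoraP2KO arrays were below the control mean, but control replicates 3 and 4 lay within their range. Fh1 differed by -0.10 (SE 0.070; limma adjusted p = 0.791). Mdh2, the mitochondrial malate dehydrogenase that closes the cycle, differed by -0.06, and Mdh1, its cytosolic counterpart in the malate-aspartate shuttle, by 0.04. Pcx, pyruvate carboxylase, which refills oxaloacetate, was at 9.70, 9.32, 9.81 and 9.91 in the RictoraP2KO arrays and at 9.53, 9.74, 9.78 and 9.92 in the control arrays. Its difference of -0.06 (SE 0.133; limma adjusted p = 0.944) became 0.06 without RictoraP2KO replicate 2, the lowest array.

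In the BCAA group, both transaminases had differences above 0 with intervals that spanned 0. Bcat1, the cytosolic enzyme, had signals of 3.24, 2.75, 3.04 and 2.67 in the RictoraP2KO arrays and of 2.95, 2.75, 2.79 and 2.62 in the control arrays, a difference of 0.15 (SE 0.131; limma adjusted p = 0.831). It was the 1 enzyme of the 36 whose mean signal lay below the array median. Bcat2, the mitochondrial enzyme that starts BCAA oxidation in most tissues, differed by 0.20 (SE 0.242). Control replicate 1 was the low array, at 6.89, with the remaining 7 from 7.45 to 8.22, and without that control array the difference was -0.03.

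Of the branched-chain ketoacid dehydrogenase, Bckdha and Bckdhb encode the decarboxylase subunits and Dbt the transacylase core. Dbt had the smallest p of the 3, at 9.49, 9.87, 9.44 and 9.58 in the RictoraP2KO arrays and at 9.29, 9.54, 9.56 and 9.41 in the control arrays, a difference of 0.15 (SE 0.107; limma adjusted p = 0.797). RictoraP2KO replicate 2 was its highest array, and without it the difference was 0.05. Bckdha differed by -0.07 and Bckdhb by -0.06.

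The phosphatase and the kinase of this complex had differences of opposite sign. Ppm1k, the phosphatase that activates the complex, was at 7.03, 6.53, 6.51 and 7.18 in the RictoraP2KO arrays and at 5.55, 6.64, 6.33 and 6.69 in the control arrays. All 4 RictoraP2KO arrays were above the control mean, replicates 2 and 3 within the control range, and control replicate 1 was the lowest of all. Ppm1k differed by 0.51 (SE 0.264; limma adjusted p = 0.732; exact two-sided permutation p = 0.171), and it was 0.26 without control replicate 1. Bckdk, the kinase that inactivates the complex, differed by -0.12 (SE 0.095; limma adjusted p = 0.809), with 3 of 4 RictoraP2KO arrays below the control mean.

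In the leucine branch, Auh, which hydrates methylglutaconyl-CoA, had the largest difference. It was at 8.04, 7.42, 7.82 and 8.24 in the RictoraP2KO arrays and at 8.50, 8.54, 7.67 and 8.60 in the control arrays. The RictoraP2KO arrays all lay below 3 of the control arrays, and control replicate 3 lay within their range. Auh differed by -0.45 (SE 0.236; limma adjusted p = 0.739; exact two-sided permutation p = 0.200). Without control replicate 3 the difference was -0.67 (limma adjusted p = 0.712), and without RictoraP2KO replicate 2 it was -0.30. Ivd, which oxidises isovaleryl-CoA, differed by 0.08, and the methylcrotonyl-CoA carboxylase genes Mccc1 and Mccc2 by -0.12 and -0.01.

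In the valine branch, Acad8, isobutyryl-CoA dehydrogenase, was at 6.93, 6.53, 7.09 and 6.95 in the RictoraP2KO arrays and at 7.07, 7.06, 7.03 and 7.11 in the control arrays. The 4 control arrays were close together (SD 0.033), and RictoraP2KO replicate 2 stood below all others. Acad8 differed by -0.19 (SE 0.110; limma adjusted p = 0.754), or by -0.08 without that array. Hibch and Hibadh, which carry hydroxyisobutyrate through the next steps, differed by -0.03 and 0.01, and Aldh6a1, which makes propionyl-CoA at the end of the branch, by 0.12. Hibadh had 2 further probe sets, both with mean signals below the array median; they differed by -0.00075 and 0.10.

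Of the enzymes that turn propionyl-CoA into succinyl-CoA, the carboxylase subunits Pcca and Pccb both had all 4 RictoraP2KO arrays below the control mean. Pccb was at 8.69, 8.57, 8.65 and 8.58 in the RictoraP2KO arrays and at 8.83, 8.86, 8.65 and 8.73 in the control arrays. Control replicate 3 was within the RictoraP2KO range, and the other 3 control arrays were above all RictoraP2KO arrays. Pccb differed by -0.14 (SE 0.065; limma adjusted p = 0.699; exact two-sided permutation p = 0.0857). Pcca differed by -0.11 (SE 0.083). Mcee, the epimerase, differed by -0.07, and the mutase gene Mmut, listed by its older symbol Mut among the 36, by 0.00025.

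Oxct1, the transferase that activates acetoacetate so that ketone bodies can be burned, had the smallest p of all 36. It was at 8.20, 7.70, 8.10 and 8.26 in the RictoraP2KO arrays and at 8.08, 8.86, 8.47 and 8.81 in the control arrays. The 4 RictoraP2KO arrays were all below control replicates 2, 3 and 4, while control replicate 1 was lower than 3 of them. Oxct1 differed by -0.49 (SE 0.187; unadjusted limma p = 0.0279, adjusted p = 0.668; exact permutation p, two-sided, 0.114). The smallest exact p that 4 against 4 arrays allow is 0.0286. Unadjusted limma p-values without 1 array were 0.0737 without RictoraP2KO replicate 2, 0.0787 without control replicate 2 and 0.0768 without control replicate 4. Without control replicate 1 the difference was -0.65 and without RictoraP2KO replicate 2 it was -0.37. A further fit left out the 3 arrays with the highest skeletal muscle, lung or neuron marker means. Without these arrays (RictoraP2KO replicate 2 and control replicates 2 and 3) the difference was -0.26. The arrays kept still held the cardiac marker Actc1 at 6.67 to 8.47, above the array median of 3.76. Oxct1 lies on chromosome 15, as does Rictor, with 12 protein-coding genes between them in the RefSeq annotation. Acat1, the thiolase that splits acetoacetyl-CoA and also ends isoleucine breakdown, differed by 0.02.

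**Figure D2:**
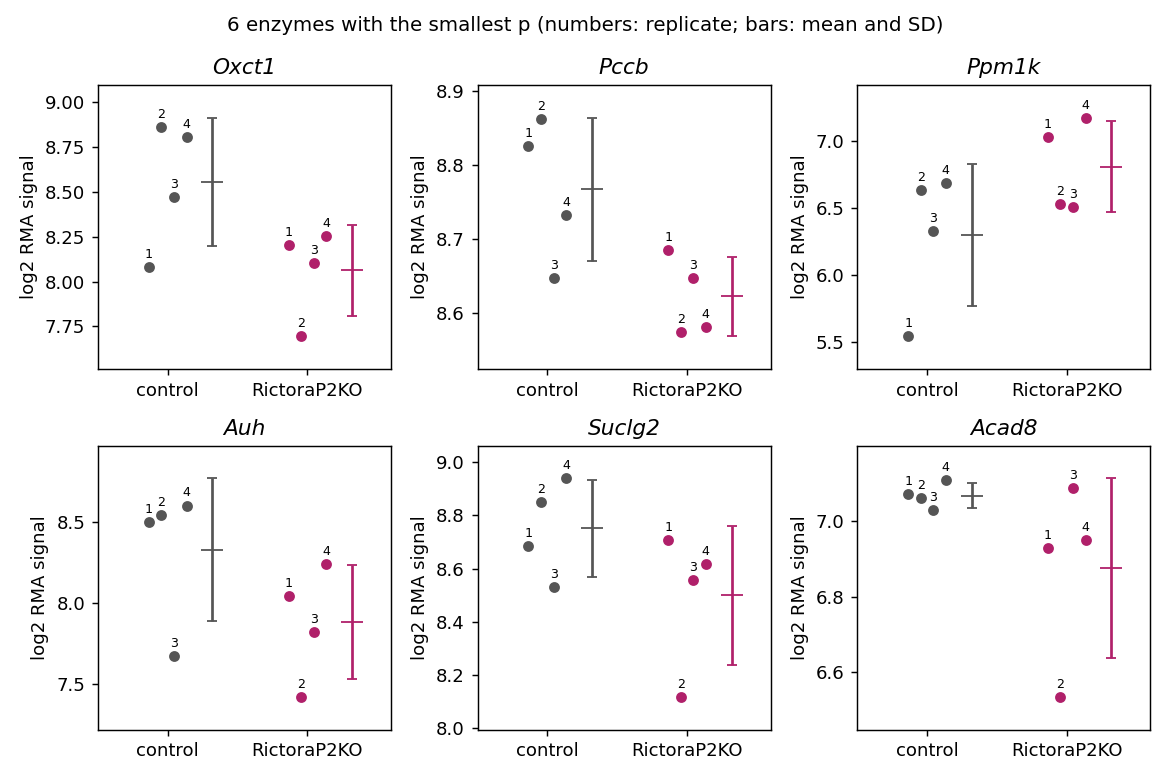
Signals (log2 RMA) of the 6 enzymes with the smallest p, by group; each point is 1 array, numbered by replicate, and bars are the mean and SD of 4 arrays. RictoraP2KO replicate 2 was the lowest array for Oxct1, Pccb, Auh, Suclg2 and Acad8, and control replicate 1 for Ppm1k; the vertical scales differ between panels and do not start at 0.

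Values varied less within a group for the TCA genes than for the BCAA genes. The median within-group SD, pooled over both groups, was 0.072 for the 15 TCA genes and 0.145 for the 21 BCAA genes, beside 0.158 for all genes above the median signal. Most TCA genes gave strong signals, and 10 of them had a mean of 10 or more. For these 10 the median SD was 0.062, beside 0.094 for all 256 genes that bright and 0.068 for the 3 BCAA genes among them (Hibadh, Mcee and Acat1). Deposited values of 10 or more carry 2 decimals, which limits how small a spread can be read there.

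A single array held most of the low values. RictoraP2KO replicate 2 was the lowest of the 8 arrays for 10 of 15 TCA genes and 10 of 21 BCAA genes, where it was the lowest for 18.5% of all genes. RictoraP2KO replicates 1 and 3 were the lowest for none of the 36. The TCA group mean, taken per array over genes centred on their means, was 0.04, -0.12, 0.01 and -0.03 in RictoraP2KO replicates 1 to 4 and 0.05, 0.05, -0.04 and 0.04 in the control replicates. The groups overlapped, and the difference of the group means was -0.05, or -0.02 without RictoraP2KO replicate 2. In that same array the skeletal muscle markers had a mean of 1.22, where the other 7 arrays lay between -0.24 and -0.06, and the cardiac muscle markers one of 1.10, where the others lay between -0.91 and 0.53. Of the cardiac markers, Actc1, cardiac actin, ran from 6.66 to 9.84 over the 8 arrays, while Myl2, the ventricular light chain, stayed between 2.48 and 2.71. The lymphocyte and brown fat markers also had their highest means, 0.56 and 0.26, in this array. The part of the muscle, lymphocyte and brown fat signals in the low enzyme values was not tested.

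**Figure D3:**
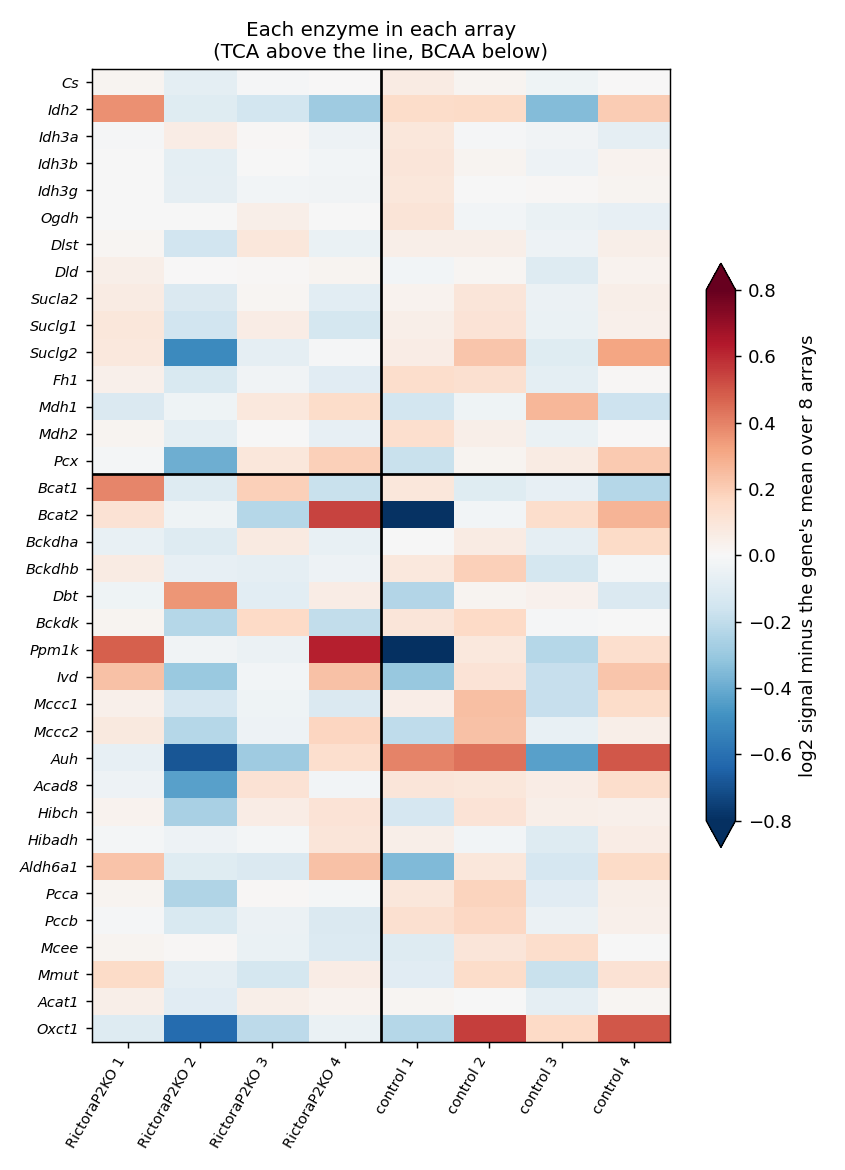
Each of the 36 enzymes (rows, TCA above the line and BCAA below) in each of the 8 arrays (columns), as the log2 signal minus the gene's mean over the arrays; red is above and blue below that mean, and the colour scale is capped, which affects Ppm1k in control replicate 1. RictoraP2KO replicate 2 is blue in most rows, and control replicate 1 is red in most TCA rows and blue for Bcat2, Ppm1k, Ivd and Aldh6a1.

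The TCA and BCAA groups were compared within each array. The BCAA mean was 0.08, -0.17, -0.03 and 0.07 in RictoraP2KO replicates 1 to 4 and -0.11, 0.13, -0.07 and 0.11 in the control replicates, a difference of -0.03. With 1 array left out this ran from -0.07 (without control replicate 1) to 0.02 (without RictoraP2KO replicate 2), and it was also above 0 without control replicate 2 (0.0093). Without the 3 arrays with the highest skeletal muscle, lung or neuron marker means it was 0.04. The TCA mean minus the BCAA mean was -0.03, 0.05, 0.04 and -0.10 in the RictoraP2KO arrays (-0.01 ± 0.07, SD, n = 4) and 0.16, -0.08, 0.02 and -0.06 in the control arrays (0.01 ± 0.11, SD, n = 4). The groups overlapped, and the difference between them, -0.02, was smaller than either SD. With 1 array left out it ran from -0.05 (without control replicate 2) to 0.03 (without control replicate 1), with values above 0 also without RictoraP2KO replicate 4 (0.0077). It was -0.08 without the 3 arrays with the highest skeletal muscle, lung or neuron marker means. No p is given for these means because the genes were chosen with earlier results of these arrays known.

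Control replicate 1 was the array in which the groups of enzymes parted most. It was the highest array for 7 of 15 TCA genes and for none of the BCAA genes, and the lowest for 5 of 21 BCAA genes and for none of the TCA genes. Over all genes it was the highest for 15.5% and the lowest for 11.2%. The 5 were Bcat2, Ppm1k, Dbt, Ivd and Aldh6a1. Of these, Aldh6a1 was at 9.52 against 9.74 to 10.11 in the other arrays and Ivd at 8.38 against 8.39 to 8.92. The regulator Klf15, a transcription factor known to promote BCAA breakdown, was also lowest in that array, at 5.52 against 6.10 to 6.87, and was named after its values were seen. Slc43a1, a transporter of large neutral amino acids named in the same way, was at 4.80 there against 6.01 to 7.52. The 13 regulators of mitochondrial genes, Klf15 among them, went the other way as a list. With each gene centred on its mean, they averaged 0.15 in that array, against -0.15 to 0.07 in the other arrays. The part of Klf15 or Slc43a1 in the low BCAA values was not tested.

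**Figure D4:**
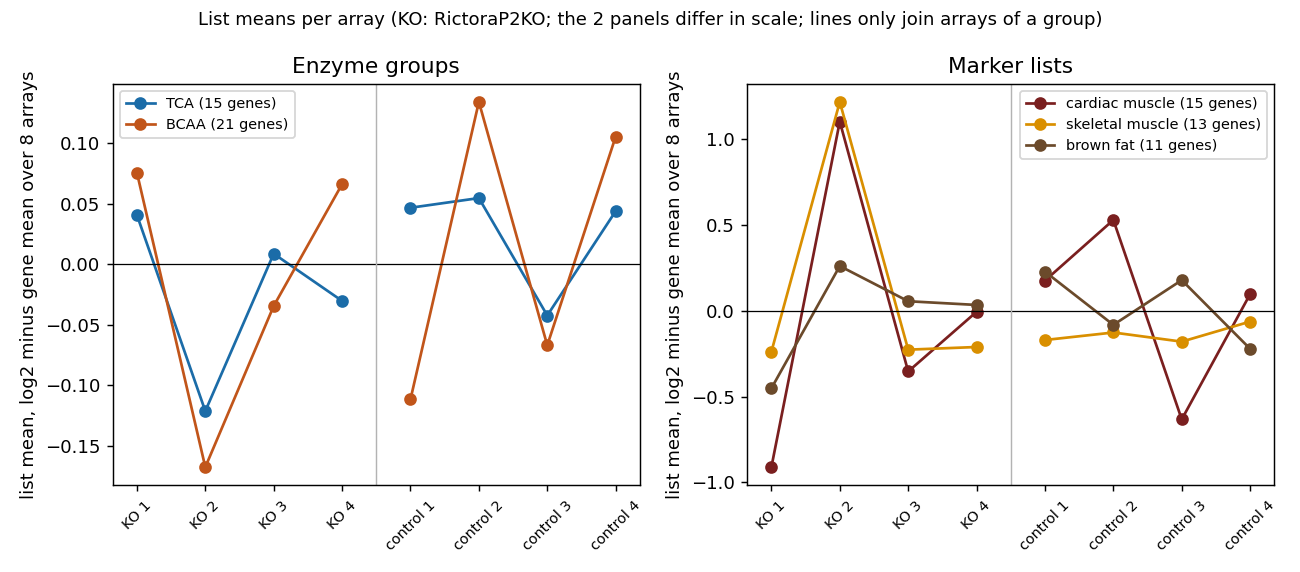
Mean per array of the TCA and BCAA genes (left) and of cardiac muscle, skeletal muscle and brown fat markers (right), in log2 signal minus each gene's mean over 8 arrays; KO stands for RictoraP2KO and the panels have different scales. RictoraP2KO replicate 2 has the lowest TCA and BCAA means (-0.12 and -0.17) and the highest muscle means (1.10 and 1.22), and control replicate 1 has a TCA mean above and a BCAA mean below 0.

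The search was widened to other genes of the same pathways. Of 25 further measured genes around the TCA cycle (such as succinate dehydrogenase, the pyruvate dehydrogenase complex with its kinases and phosphatases, malic enzymes and transaminases) none had an unadjusted p under 0.05. Over all genes 6.48% had such a p. Differences below 0 were seen for 14 of the 25 (56%), beside 53.2% of all genes. The smallest p-values of the 25 belonged to Me3, Ogdhl and Glud1. Me3, the mitochondrial NADP-dependent malic enzyme, differed by -0.42 (SE 0.206, limma adjusted p = 0.726). Ogdhl, a paralog of Ogdh, differed by 0.12, and Glud1, glutamate dehydrogenase, by -0.18. In the RictoraP2KO and control arrays Ogdhl averaged 2.76 and 2.65, below the array median of 3.76. The succinate dehydrogenase subunits Sdha, Sdhb, Sdhc and Sdhd, which oxidise succinate, differed by 0.0025, -0.00125, 0.0075 and -0.07. Pdk4, the pyruvate dehydrogenase kinase induced by fasting, differed by -0.02 with an interval from -0.16 to 0.12.

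Of 23 further genes of BCAA, propionate and ketone metabolism and amino acid transport, 1 had an unadjusted p under 0.05. The share over all genes was 6.48%. Differences below 0 were seen for 10 of the 23 (43.5%), beside 53.2% of all genes. Mmab, which makes the cobalamin cofactor of the mutase Mmut, was at 6.26, 5.67, 6.80 and 5.79 in the RictoraP2KO arrays and at 7.29, 6.67, 6.83 and 6.39 in the control arrays. RictoraP2KO replicate 3 lay within the control range and the other 3 below it. Mmab differed by -0.67 (SE 0.267; limma adjusted p = 0.668; exact two-sided permutation p = 0.0857). Slc25a44, the mitochondrial carrier of branched-chain amino acids, differed by 0.03 with an interval from -0.19 to 0.25. Of 13 regulators of mitochondrial genes, 10 had differences below 0, as did 53.2% of all genes. Among these 10, Tfam, Gabpa and Yy1 differed by -0.00125, -0.0095 and -0.04. None of the 13 had an unadjusted p under 0.05, beside 6.48% of all genes. The smallest p-values belonged to Sirt3, a mitochondrial deacetylase (-0.26, SE 0.119), Esrrb (-0.14, SE 0.069) and Esrra (-0.19, SE 0.102). The last 2 encode estrogen-related receptors. Limma adjusted p-values of Sirt3, Esrrb and Esrra ran from 0.708 to 0.741. Esrrb averaged 2.55 in the RictoraP2KO arrays and 2.69 in the control arrays, below the array median of 3.76.

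Promoters were examined because estrogen-related receptors and NRF1 are known to act on mitochondrial genes and both were measured on the arrays. The RefSeq promoter table (GRCm38.p6, 250 bases before to 50 after each start) matched 32 of the 36 genes with 43 windows; Idh3a, Dbt, Mmut and Acat1 had no entry. The letters AAGGTCA, the core of the site of estrogen-related receptors, were present on either strand in 2.33% of the 43 windows and in 4.72% of all 32851. The 1 window belonged to Ogdh. The letters CATGCGC, part of the NRF1 site, were present in 6.98% of the 43 windows and 3.91% of all, in 1 window of Pccb and 2 overlapping windows of Ogdh. The transcript of Nrf1 differed by 0.01 (SE 0.083). The 250 bases before the start are shown 5′ to 3′ on the strand of the gene for Oxct1, the enzyme with the smallest p, and for Pccb and 1 Ogdh start, which hold the NRF1 letters; capitals mark a match on the opposite strand. They lie at chr15:4026178-4026427, plus strand, at chr9:101034885-101035134, minus strand, and at chr11:6292308-6292557, plus strand. The match begins 35 bases before the start in Pccb and 15 before it in Ogdh, and Oxct1 holds neither motif. These matches describe letters in the windows and not bound sites.
Oxct1: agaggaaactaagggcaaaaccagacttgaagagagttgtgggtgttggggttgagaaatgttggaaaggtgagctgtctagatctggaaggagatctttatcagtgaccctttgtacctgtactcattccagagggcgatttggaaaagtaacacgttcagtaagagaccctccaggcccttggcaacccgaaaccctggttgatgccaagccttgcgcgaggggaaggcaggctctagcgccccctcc
Pccb: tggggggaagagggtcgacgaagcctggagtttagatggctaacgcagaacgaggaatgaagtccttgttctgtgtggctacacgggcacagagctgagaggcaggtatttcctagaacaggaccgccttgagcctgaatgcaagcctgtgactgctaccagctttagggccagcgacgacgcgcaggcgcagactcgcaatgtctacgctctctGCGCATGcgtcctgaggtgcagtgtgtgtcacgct
Ogdh: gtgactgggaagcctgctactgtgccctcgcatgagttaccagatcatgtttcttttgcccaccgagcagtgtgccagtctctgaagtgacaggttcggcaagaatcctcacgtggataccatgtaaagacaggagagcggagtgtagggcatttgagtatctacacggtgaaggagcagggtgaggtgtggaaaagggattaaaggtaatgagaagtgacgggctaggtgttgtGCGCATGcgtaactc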

How the data were processed

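Total RNA of 8 samples, 5 µg each, was hybridised to 1 Affymetrix array per sample, per the labels' protocols. The authors deposited 1 table of log2 RMA signals for 28371 probe sets, which per the submitters' processing notes came from RMA in version 1.10.2 of Affymetrix Power Tools; no genome build is given in those notes. RMA gives all arrays the same distribution of values, so a change in total RNA per cell would not show. Probe sets were named by the platform annotation: 21158 have 1 symbol and 1881 several, and only the first kind was used. Of the 36 genes, 34 have 1 probe set and 2 have more.

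The genotypes were compared by limma (version 3.58.1, R 4.3.3; lmFit and eBayes, two-sided, Benjamini-Hochberg over all probe sets, threshold 0.05), with no filter and no covariate; single genes also by an exact permutation test over 70 assignments. The size of planted differences was checked on simulated arrays with independent normal noise for each probe set. Such arrays hold none of the signals that many genes share within a real array, so p-values under those signals were not checked. For counts of the highest or lowest array, a tie went to the first array in replicate order, RictoraP2KO first. Genes and lists were chosen with earlier results of these data known. All 36 were named; values of every array were given for the 6 with the smallest p and the smallest p of each other step. From the lists of other genes, those with unadjusted p under 0.05 or otherwise the 3 smallest were named, and further names in those lists were added after values were seen. Nothing says that samples came from separate animals, so p-values measure the spread between samples. The number of arrays limits precision.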

Additional observations from a re-analysis of the deposited data

Results flagged for a closer look

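In 7 of 76 groups of 4 arrays (36 genes and both group means, in each genotype), 1 array stood apart from the other 3. The gap, as a share of the group's range, was above Dixon's 95% critical value. For 1 group of independent values, chance gives about 1 in 20. The 76 groups share the same 8 arrays, and the TCA mean contains Idh2 and Dlst, so 7 of 76 cannot be read as an excess. In 4 of the 7 groups control replicate 3 was the low array. It was at 8.98 for Idh2, where the next control array was at 9.47 (gap 0.897 of the range), at 7.67 for Auh, next 8.50 (0.890), and at 10.04 for Dlst, where the other 3 were equal at 10.13 (1). The TCA mean was -0.04 there and 0.04 in the next control array (0.889). RictoraP2KO replicate 2 was the low array for Pcca, at 9.06 with the next at 9.28 (0.858), and for Acat1, at 10.74 with the next at 10.86 (0.857). RictoraP2KO replicate 3 was the high array for Ogdh, at 11.12 where the others were equal at 11.07 (1). For Dlst and Ogdh the gap is set by values deposited to 2 decimals.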

How the results depend on the processing

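No enzyme passed the adjusted threshold under any of the 17 alternatives fitted, nor did any pass an adjusted threshold of 0.1, or 1.5-fold together with an unadjusted 0.01; the smallest adjusted limma p was 0.581. The sign of 24 of the 36 differences was kept in all of them, those of Oxct1, Auh, Ppm1k, Suclg2, Acad8 and Pccb among them. These named enzymes have the smallest p in the same arrays, so their kept signs are no independent support. Some alternatives change only the estimate of variance or add the replicate number as a block. They return the same difference and cannot turn a sign. The number of enzymes with an unadjusted p under 0.05, 1 as reported, was 2 with array weights (Oxct1 and Pccb; 6.5% of all genes) and 0 with the replicate number as a block (5.33% of all genes). Arrays with the same number do not deviate together (correlations from -0.15 to 0.09), so the numbers are not taken as pairs. Leaving out 1 array gave 0 to 4: 0 without RictoraP2KO replicate 2, control replicate 2 or control replicate 4 (5.36%, 5.12% and 5.48% of all genes), 3 without RictoraP2KO replicate 3 (Oxct1, Acad8 and Bckdk; 8.32% of all genes), and 4 without control replicate 3 (Oxct1, Auh, Pccb and Mccc1; 6.17% of all genes). The number with no overlap between the groups, 0 as reported, ran from 0 to 5 with 1 array left out, the 5 without control replicate 3, where 7.2% of all genes did not overlap. Without the 3 arrays with the highest skeletal muscle, lung or neuron marker means it was 9. There 19.2% of all genes did not overlap, with 3 arrays against 2.

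The sign of 12 differences turned in at least 1 alternative, the largest of them that of Bcat2, 0.20 as reported. Without those 3 arrays the difference was -0.023 for Idh3a, -0.0083 for Ogdh, 0.076 for Pcx, 0.15 for Mccc2, 0.12 for Hibch, -0.028 for Hibadh and 0.0033 for Mcee, and with array weights it was -0.025 for Mmut. With 1 array left out in turn, differences ran from -0.012 to 0.042 for Idh3a, -0.00083 to 0.056 for Ogdh, -0.0078 to 0.14 for Mdh1, -0.135 to 0.061 for Pcx, -0.0305 to 0.32 for Bcat2, -0.011 to 0.19 for Ivd, -0.078 to 0.068 for Mccc2, -0.080 to 0.052 for Hibch, -0.02 to 0.033 for Hibadh, -0.058 to 0.049 for Mmut and -0.0033 to 0.051 for Acat1. The TCA group mean kept its sign, from -0.07 to -0.02 with 1 array left out. The cause of these changes was not tested. Quantile normalisation once more and median centring turned no sign. RMA had already given all arrays the same distribution, so neither could change the differences much.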
